A study of Homo sapiens with 2 samples.

Results

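The genes described here build fatty acids from citrate and join them into triglyceride. They are ACLY, ACACA, ACACB, FASN, ELOVL6, SCD, GPAM and DGAT2, and the data are the LSD2 peaks that lie in them. LSD2, encoded by KDM1B, removes methyl groups from histone H3. A peak is an interval of DNA in which an LSD2 chromatin immunoprecipitation (ChIP) library exceeded an input library. Identical lines of the peak list were counted once, and a peak belonged to a gene when its midpoint fell in the span of that gene in the hg19 genome build. By this rule 200 of the 370863 distinct peaks were members, in 7 of the 8 genes. Each gene was set against the 200 kb on either side of it, which together held 528 peaks. The genes were selected on peak counts seen in this same list, so the counts, densities and widths below are descriptions, and no test is given.

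The study had 2 libraries, 1 of LSD2 ChIP and 1 of input, both from HepG2 cells, a human line from a liver tumour. The cells were cultured at 25 mM glucose with 10% serum and received no further treatment named in the labels. The ChIP antibody was a rabbit polyclonal against human LSD2 (residues 26 to 822), and the input was chromatin taken without an antibody. With 1 library per condition there was no replicate error, and transcription was not measured. The deposited list gives positions only. It has no height or p-value per peak and no read depth, so width is the one measured property of a single peak. HepG2 is aneuploid, and a region with more DNA copies can yield more and wider peaks. Gene and flanks are close neighbours on the chromosome, but their copy number was not measured.

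In hepatocytes, surplus carbohydrate leaves the mitochondrion as citrate, which ATP citrate lyase (ACLY) splits to acetyl-CoA. Acetyl-CoA carboxylase makes malonyl-CoA from it, fatty acid synthase (FASN) turns malonyl-CoA into palmitate, and ELOVL6 and SCD lengthen and desaturate the product. GPAM attaches the first acyl chain to glycerol-3-phosphate, and DGAT2 adds the last one to complete triglyceride. The transcription factors SREBP-1c and ChREBP raise the expression of many of these genes after insulin and glucose. LSD2 itself has been described in human cells as a protein found along the bodies of transcribed genes.

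GPAM stood apart from the other members. It held 27 peaks in 33.9 kb, or 7.97 peaks per 10 kb, against 1.98 per 10 kb in its flanks, a ratio of 4.03. SCD followed at 3.93 peaks per 10 kb and ACACA at 3.26, while ACACB, ACLY, ELOVL6 and DGAT2 lay between 1.52 and 1.57. FASN held no peak. All searched sequence averaged 1.30 peaks per 10 kb. Summed over the 8 genes there were 2.54 peaks per 10 kb in the genes and 1.65 in the flanks, a ratio of 1.54 (95% exact interval 1.30 to 1.82). This and the intervals that follow cover counting error only. They assume independent peaks, although peaks that lie side by side are alike. ACACA supplied 53.0% of the member peaks and GPAM 13.5%. Without these 2 genes, a choice made after the values were seen, the ratio was 1.09 (0.83 to 1.43), from 1.57 peaks per 10 kb in the genes and 1.43 in the flanks. The median of the 8 ratios was 1.13, with 5 genes above 1 and 3 below.

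**Figure D1:**
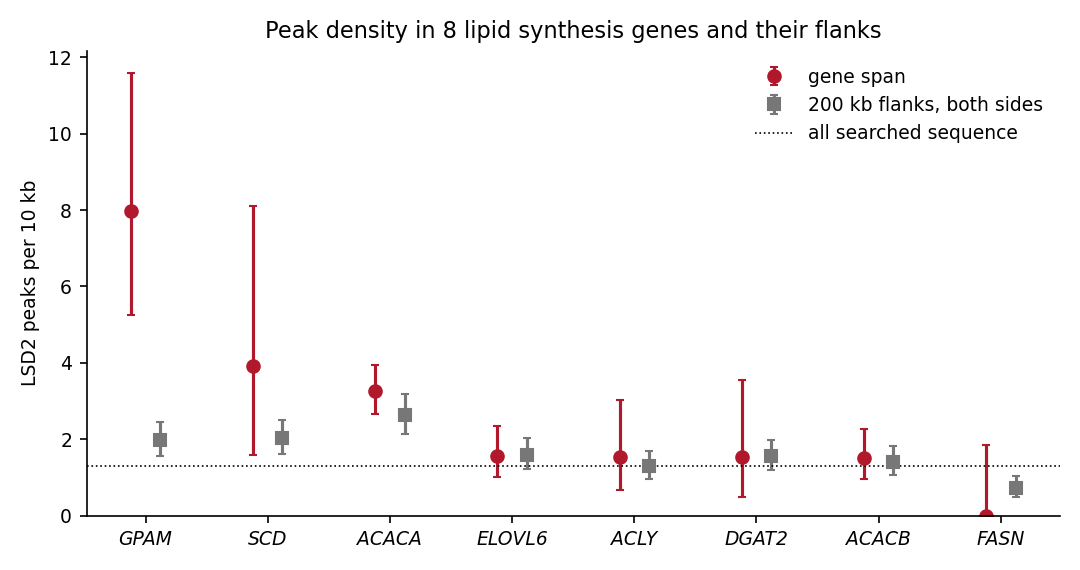
LSD2 peaks per 10 kb (vertical axis) in the span of each gene (red circles) and in its 200 kb flanks (grey squares), with exact 95% counting intervals. The dotted line marks the 1.30 peaks per 10 kb of all searched sequence. GPAM has the highest point, at 7.97 in the gene against 1.98 in its flanks.

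GPAM encodes the mitochondrial glycerol-3-phosphate acyltransferase, which commits acyl-CoA to glycerolipid. The gene lies on the minus strand of chromosome 10 (chr10:113909624-113943521). Its density interval ran from 5.25 to 11.6 peaks per 10 kb, against 1.56 to 2.46 in the flanks, and the interval on the ratio from 2.50 to 6.31. The ratio was 8.85 (3.82 to 19.9) among peaks in the widest 10% of the list. Peaks covered 33.6% of the gene, against 6.0% of the flanks. Relative to the average of chromosome 10, GPAM was 5.24 times as dense and its flanks 1.30 times. When the searched genome was tiled in windows of the length of GPAM, the median window had 4 peaks, and 10 of 84405 windows, or 0.0118%, had 27 or more. On chromosome 10 itself 0 of 3898 such windows (0.0%) reached 27, and the highest had 26. None of the 10 windows with 27 or more peaks therefore lay on chromosome 10 or on GPAM. The tiling includes GPAM but can divide it between neighbouring windows, so the highest window on chromosome 10 may hold part of it.

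Most GPAM peaks belonged to 1 unbroken run. From 113918545 to 113940631, 23 successive peaks each lay within 2 kb of the next, and they covered 43.8% of this 22.1 kb. The run began 2.89 kb inside the gene, ended 25.0 kb from the 5′ end, and took up 65.2% of the gene. It thus lay inside the transcribed span, with 8.92 kb of GPAM left beyond it towards the 3′ end. Gaps between its peaks had a median of 457.5 bp and ranged from 156 to 1458 bp. In the whole list 46 runs of 15 or more peaks at this spacing were found. Of these, 3 had more peaks than the GPAM run, and others tied with it. Of the 8 genes, GPAM was the only one with such a run, and no run reached into the flanks of any of them. The longest chain at the same spacing had 7 peaks in ACACA, 5 in ACLY, 4 in SCD, 4 in ELOVL6 and 3 in ACACB, and in DGAT2 no neighbouring peaks were within 2 kb. The definition of a run was chosen after peak positions had been seen. With gaps up to 1 kb, GPAM and the other genes had no run.

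GPAM peaks were also wide. Their median width was 366 bp (quartiles 248.5 and 489.5), against 222 bp in the flanks (157.5 and 357) and 173 bp over the whole list. Of the 27 peaks, 24 were at least as wide as that whole-list median. The widest 10% of the list, peaks of 387 bp or more, held 12 of the 27 GPAM peaks (44.4%), against 16 of 79 in the flanks (20.3%) and 10.0% of all peaks. The widest GPAM peak, 1081 bp from 113939551 to 113940631, was the one nearest the 5′ end. The next widest was 948 bp, from 113911447 to 113912394, near the 3′ end. Inside the run, widths of 765 bp at 11.3 kb and 704 bp at 22.7 kb from the 5′ end stood among peaks as narrow as 146 bp. Width therefore did not change steadily along the gene.

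**Figure D2:**
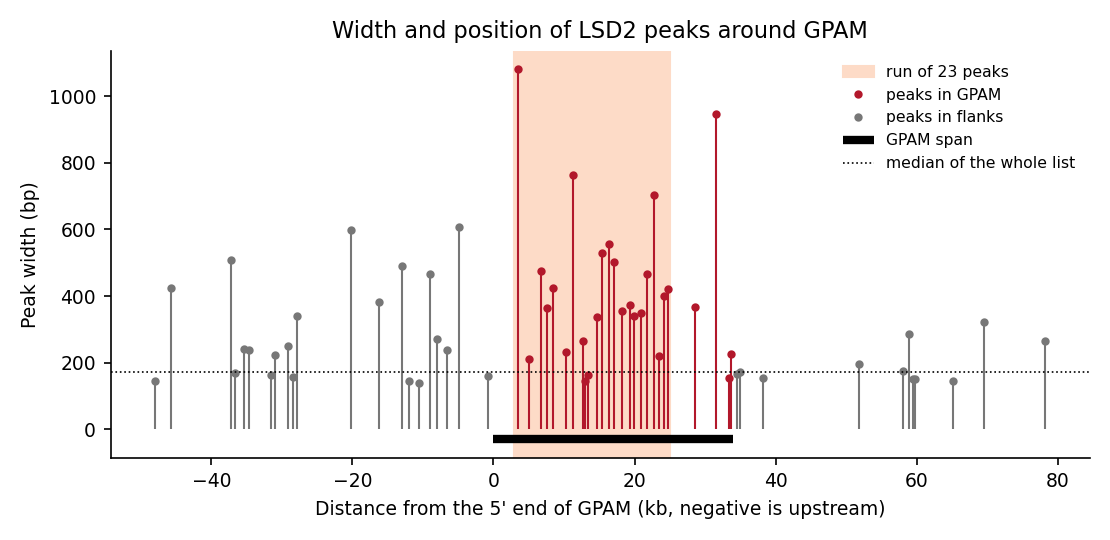
Width in bp (vertical axis) of each peak around GPAM against its distance in kb from the 5′ end of the gene (horizontal axis, negative is upstream). Red points are peaks in the gene, grey points peaks in the flanks, the black bar the gene and the shaded band the run of 23 peaks, which starts 2.89 kb and ends 25.0 kb from the 5′ end.

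Around GPAM the peaks thinned out unevenly. Of the first 3 steps of 10 kb from the 5′ end, the second was the densest with 12 peaks, against 5 in the first and 7 in the third. Among 40 flank steps of 10 kb the median was 1 peak and the highest 6. The upstream flank had 51 peaks and the downstream flank 28. Upstream of GPAM, on the side of TECTB, there were further peaks over 1 kb wide, of 1020, 1316 and 1162 bp, with midpoints 77.6, 78.8 and 96.3 kb from the 5′ end. ADRA2A is the nearest protein-coding gene on the other side, by the order of genes in the RefSeq GRCh38.p14 table. Exons were not placed on these peaks, since no hg19 annotation was used here.

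Each gene was given 1 start, the 5′ edge of its span, and further RefSeq starts, as in ACACA and ACACB, were not checked. Of these edges, that of GPAM was the only one with a peak within 1 kb. That peak was 159 bp wide, lay outside the gene, and had its midpoint 778 bp upstream of the 5′ end (113944220 to 113944378). The RefSeq promoter is shown because of this peak. It covers 250 bases before and 50 after the start on the minus strand of GRCh38.p14 (chr10:112183716-112184015). In RefSeq the distance between this start and the far end of GPAM differed by 3 bp from the hg19 span used for peaks. Capitals mark a GC box (GGGCGG, here on the opposite strand, from -66 with the start site at 0) and an NF-Y box (CCAAT, on the opposite strand, from 17).
GPAM promoter: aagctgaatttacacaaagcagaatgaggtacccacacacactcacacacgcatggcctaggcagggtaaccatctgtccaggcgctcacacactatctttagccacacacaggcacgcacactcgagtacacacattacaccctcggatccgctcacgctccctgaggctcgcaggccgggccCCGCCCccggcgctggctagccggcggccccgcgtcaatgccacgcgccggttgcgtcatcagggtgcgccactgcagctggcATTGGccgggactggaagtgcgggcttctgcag
No E-box (CACGTG) or TATA box (TATAAA) was found on either strand of this window. Among 35116 RefSeq promoters of the same length, 45.0% held a GC box, 34.6% an NF-Y box, 7.26% an E-box and 11.5% a TATA box. The GPAM window had 63.0% G and C bases with 23 CpG pairs, against medians of 58.7% and 14 over all promoters. Its 300 bases end short of the upstream peak, so these letters describe the start site and not the peak.

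No peak lay within 500 bp of any of the 8 gene starts, and 14.9% of windows of that size over the searched genome overlap one. Within 1 kb on either side, 1 of 8 starts had a peak, whereas 24.7% of windows of that size over the searched genome overlap one. Within 2 kb the number was 5 of 8, for GPAM, ACACA, ACACB, ELOVL6 and DGAT2, against 40.2% of windows. ACACA counts here through a peak centred 1914 bp upstream of the span. Its first RefSeq start may lie elsewhere, since the distance from that start to the far end of the gene differs by 3131 bp from the hg19 span, so the number without ACACA is 4 of 7. Each share rests on 8 genes and was not tested. The starts of FASN, ACLY and SCD had no peak within 2 kb. The span edges that decide membership were mostly clear of peaks. In the 7 genes with members, the first peak inside the 5′ edge was 1361 to 12515 bp from it, and the nearest one outside was 778 to 21113 bp away. At the 3′ edge the last member lay 152 to 19096 bp inside, and the next peak 608 to 25694 bp outside. Inside the genes, 93 peaks lay nearer the 5′ end and 107 nearer the 3′ end. When each gene was divided into 10 equal parts from the 5′ end, part 1 held 12 of the 200 peaks, the fewest, and parts 5 and 6 held 27 each, the most. ACACA alone supplied 6 of these peaks in part 1, 18 in part 5 and 11 in part 6. The summed profile thus rests largely on that 1 gene.

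**Figure D3:**
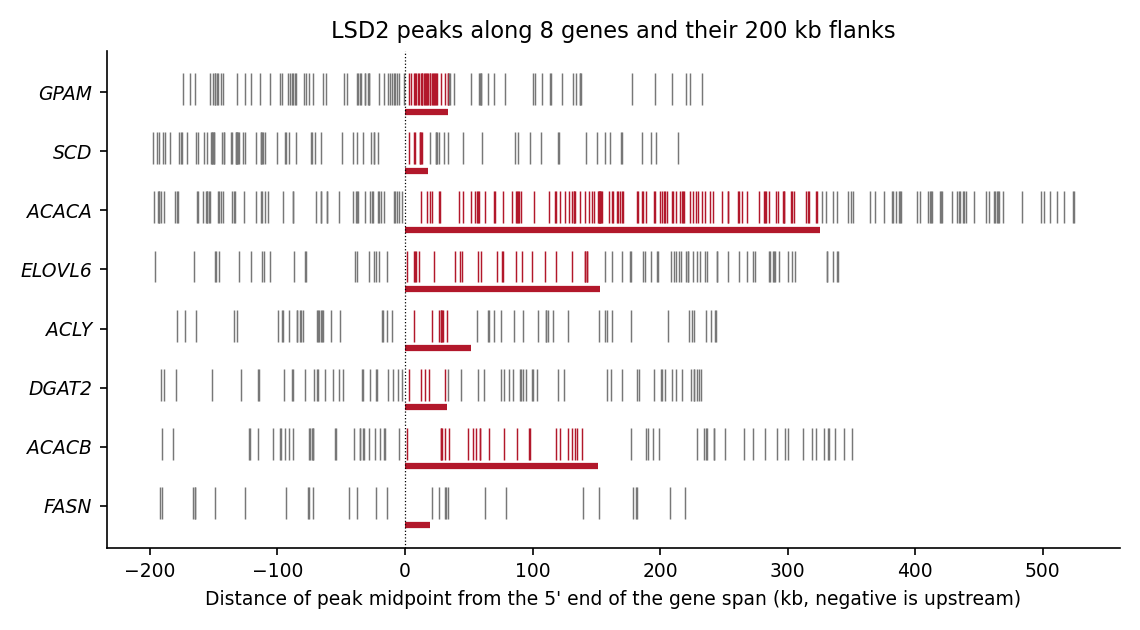
Midpoints of LSD2 peaks (ticks) in each gene (red) and its 200 kb flanks (grey) against distance in kb from the 5′ end of the gene span. Red bars mark the gene spans. GPAM shows a dense block inside the gene, ACACA a series that runs through its 325.0 kb, and FASN none.

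ACLY, which supplies cytosolic acetyl-CoA, had 8 peaks in 52.1 kb (chromosome 17, minus strand, 40023179 to 40075272). This was 1.54 peaks per 10 kb, against 1.30 in the flanks, a ratio of 1.18 (0.48 to 2.50). In the tiled genome 36.1% of windows of this length had 8 or more peaks, as did 42.5% of those on chromosome 17, so the count was an ordinary one. The peaks were unevenly placed. A chain of 5 lay between 40045505 and 40048473, in the middle of the gene, and the longest stretch without a peak, 23.0 kb, took in the 3′ end. The median width in ACLY was 318 bp, against 185 bp in the flanks, and widths ran from 141 to 433 bp. With 8 peaks these medians are loosely fixed.

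The acetyl-CoA carboxylases form malonyl-CoA. ACACA encodes the cytosolic enzyme, which feeds fatty acid synthesis, and ACACB the enzyme at the mitochondrial surface, whose malonyl-CoA restrains fatty acid oxidation. ACACA (chromosome 17, minus strand, 35441927 to 35766902) held 106 peaks in 325.0 kb, or 3.26 per 10 kb (2.67 to 3.95), against 2.62 (2.15 to 3.18) in its flanks. The ratio was 1.24 (0.94 to 1.64). It was larger among wide peaks, at 1.92 (1.34 to 2.77) for peaks of at least the whole-list median width and 1.94 (1.06 to 3.65) in the widest 10%. With flanks of 500 kb it was 1.74 (1.35 to 2.21). Of 8 alternatives to the peaks or flanks used, only these 3 had a lower limit above 1. The ratio was 1.28 (0.91 to 1.82) with flanks of 100 kb. It was 1.16 (0.83 to 1.64) against the upstream flank and 1.33 (0.94 to 1.91) against the downstream one. The whole neighbourhood was dense, since ACACA was 2.31 times and its flanks 1.86 times as dense as chromosome 17. Of 8780 genome windows of its length, 0.353% had 106 or more peaks, as did 2 of 239 windows on chromosome 17 (0.837%). These windows include the sequence of ACACA itself. Widths set the gene further from its flanks than numbers did. The median was 265 bp in ACACA, against 171 bp in the flanks. The widest 10% of the list held 30 of the 106 peaks in the gene (28.3%), against 19 of 105 in the flanks (18.1%). Coverage was 10.2% of ACACA and 6.72% of the flanks.

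Along ACACA the middle was densest. Of 10 equal parts counted from the 5′ end, parts 5 to 7 held 45 of the 106 peaks (42.5%), with 18 in part 5 and 16 in part 7, and 14 of the 30 wide peaks. Part 1 had 6 peaks, of which the first was centred 12.5 kb inside the gene. The widest ACACA peak was 930 bp, from 35599220 to 35600149, at 167 kb from the 5′ end. The longest chain, 7 peaks from 35612591 to 35615646, lay 151 to 154 kb from it. The 3 RefSeq starts of ACACA are not resolved here. C17orf78 overlaps the gene, so a peak in the span need not belong to ACACA transcription.

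ACACB (chromosome 12, plus strand, 109554400 to 109706031) had 23 peaks in 151.6 kb, or 1.52 per 10 kb (0.96 to 2.28), against 1.40 in its flanks, a ratio of 1.08 (0.64 to 1.79). Per 10 kb, the count in ACACB was lower than that in ACACA. They lie on different chromosomes, and ACACB was 1.16 times as dense as chromosome 12 while the flanks of ACACA alone were 1.86 times as dense as theirs. Peaks in ACACB were narrow, with a median of 164 bp, against 205 bp in its flanks, and 1 of 23 was in the widest 10%, a peak of 602 bp from 109687538. The last peak was centred 13086 bp before the 3′ end, and a peak-free stretch of 38.6 kb then ran on past that end. Of windows of this length, 33.1% over the genome and 31.8% on chromosome 12 had as many peaks or more.

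**Figure D4:**
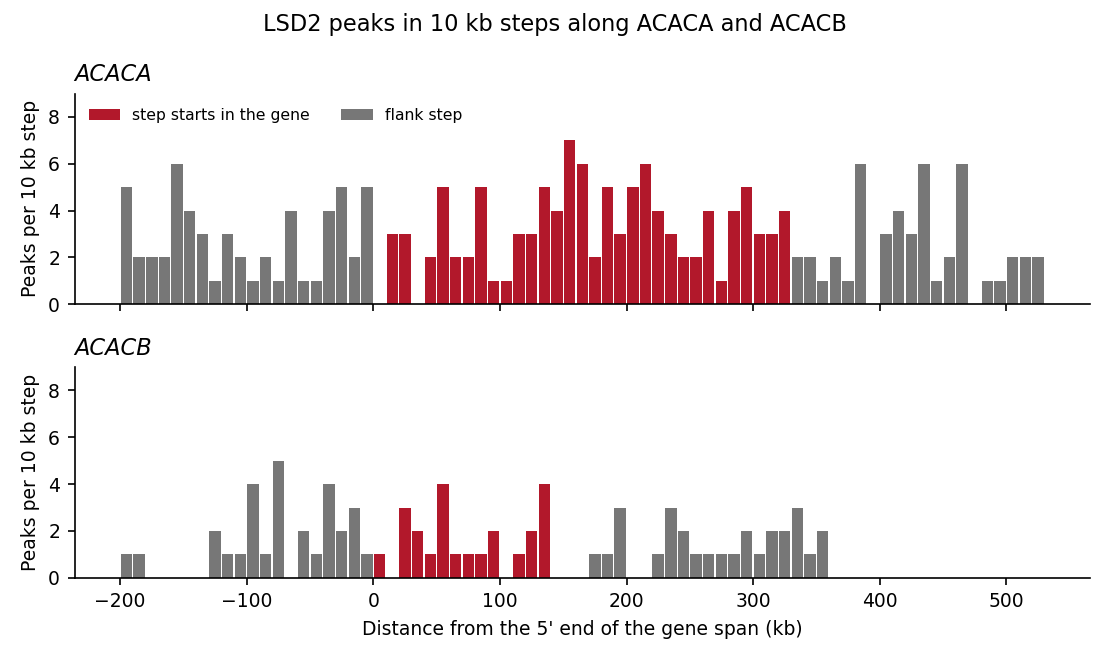
Peaks per step of 10 kb (vertical axis) along ACACA (top) and ACACB (bottom) and their flanks, by distance in kb from the 5′ end. Red bars are steps that start in the gene and grey bars flank steps. ACACA reaches 7 peaks in a step near its middle, and its flanks reach 6.

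FASN, the multi-enzyme chain that makes palmitate, held no peak in its 19.9 kb (chromosome 17, minus strand, 80036214 to 80056106). Its flanks had 29 peaks, or 0.725 per 10 kb (0.486 to 1.04), the lowest of the 8 genes and 0.515 times the average of chromosome 17. At that density FASN would hold 1.44 peaks. The exact interval on a count of 0 over this length reaches 1.85 per 10 kb, so a difference from the flanks was not detectable. Windows of this length without a peak made up 13.9% of the genome and 13.6% of chromosome 17. The peak-free stretch around FASN was 35.0 kb long, from 80034965 to 80069987. The nearest upstream peak was centred 14.0 kb from the start, on the side of CCDC57. An empty gene in this list may lack LSD2 or may lack reads, and depth is unknown.

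ELOVL6, which extends palmitate to stearate, had 24 peaks in 152.8 kb (chromosome 4, minus strand, 110967002 to 111119820). This was 1.57 per 10 kb, against 1.60 in its flanks, a ratio of 0.98 (0.59 to 1.59). The downstream flank, towards EGF, had 44 peaks and the upstream flank, towards ENPEP, 20, so the gene lay between a denser and a sparser side. The first of 10 equal parts of ELOVL6 held 5 peaks, of which the outermost was 1382 bp inside the 5′ end and 143 bp wide. Median width was 181 bp in the gene and 202 bp in the flanks, and the widest peak was 719 bp (111027999 to 111028717). Of windows of this length, 30.3% had 24 or more peaks over the genome and 25.1% on chromosome 4.

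SCD, the desaturase that makes oleate, was second to GPAM in density, with 7 peaks in 17.8 kb (chromosome 10, plus strand, 102106772 to 102124588). This was 3.93 per 10 kb (1.58 to 8.09), against 2.02 in the flanks. The ratio was 1.94 (0.76 to 4.18), and it depended on how lines and flanks were counted. It was 3.14 (1.15 to 7.48) against the downstream flank and 1.40 (0.54 to 3.09) against the upstream one. With flanks of 100 kb it was 2.71 (1.002 to 6.32). Counting every deposited line gave 2.69, but copies of 1 interval then count as separate peaks, so no counting interval is given. Of windows of this length, 3.47% had 7 or more peaks over the genome and 5.49% on chromosome 10. SCD peaks were narrower than those in the flanks, with a median of 184 bp against 258 bp, but not narrower than the whole list, at 173 bp. The widest was 413 bp, and with 7 peaks the median is loosely fixed. A chain of 4 lay between 102118372 and 102120565, 11.6 to 13.8 kb from the 5′ end. The start itself stood in a peak-free stretch of 24.4 kb, and the first peak inside the gene was centred 3.41 kb from it. The upstream flank, towards PKD2L1, was denser, with 56 peaks, than the downstream flank, with 25.

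SCD differed from GPAM in one further respect. Of its 7 intervals, 5 were listed more than once in the deposited file (71.4%, Wilson 95% interval 35.9% to 91.8%), against 12 of 81 in its flanks (14.8%, 8.68% to 24.1%). The Wilson interval takes peaks as independent, but all 4 peaks of the SCD chain were among the 5. In GPAM 0 of 27 intervals were repeated, for which the Wilson interval reaches 12.5%, and 0 of 79 in its flanks, for which it reaches 4.64%. The share was 10.1% over the whole list, and 8.50% in the 8 genes, against 12.7% in the flanks. It was lower in the gene than in its flanks for ACLY (0 of 8 against 17 of 52), ACACB (1 of 23 against 12 of 56) and ACACA (9 of 106 against 13 of 105). For ELOVL6 (1 of 24 against 2 of 64) and DGAT2 (1 of 5 against 5 of 62) it was higher in the gene. The sources used here do not say what a repeated line stands for.

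DGAT2, which forms triglyceride from diacylglycerol, had 5 peaks in 32.8 kb (chromosome 11, plus strand, 75479778 to 75512581). This was 1.52 per 10 kb (0.49 to 3.56), against 1.55 in the flanks, a ratio of 0.98 (0.31 to 2.42). DGAT2 is close to GPAM in length and acts at the other end of the same pathway, yet its count was 5 where GPAM had 27. The genes lie on different chromosomes, and the flanks of GPAM were also denser, at 1.98 peaks per 10 kb against 1.55 for DGAT2. Of windows of the length of DGAT2, 39.3% had 5 or more peaks over the genome and 34.1% on chromosome 11. The widths from the 5′ to the 3′ end were 156, 208, 301, 161 and 711 bp. The widest, from 75510910 to 75511620, lay 1316 bp inside the 3′ end, and a peak of 599 bp followed 608 bp beyond it.

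**Figure D5:**
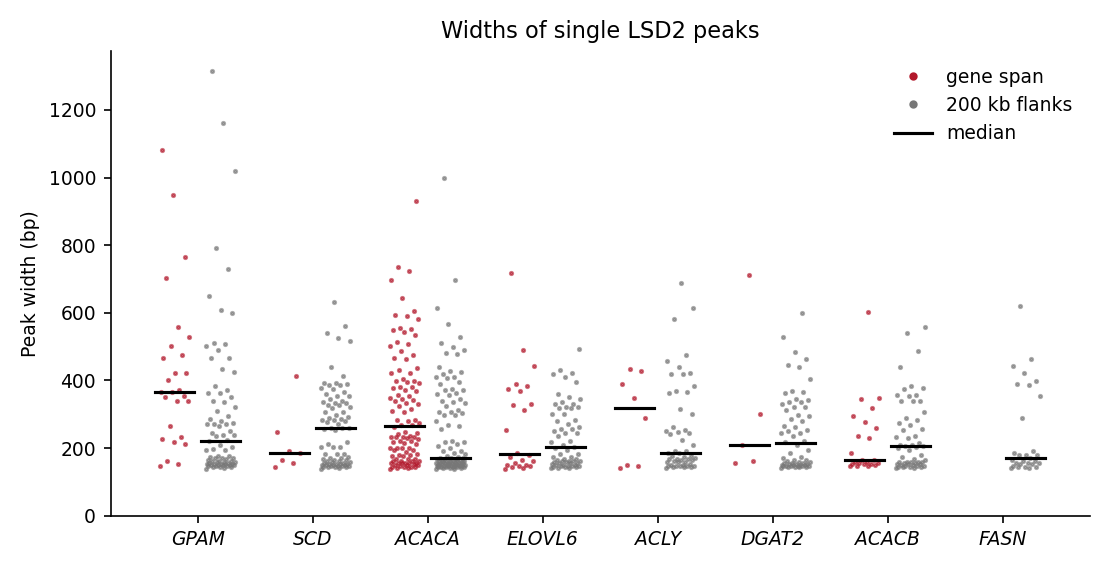
Width in bp of every peak (points) in each gene (red) and its 200 kb flanks (grey), with medians as black bars. Medians are higher in the gene than in the flanks for GPAM (366 against 222 bp), ACACA (265 against 171 bp) and ACLY (318 against 185 bp), and lower for SCD, ELOVL6, ACACB and DGAT2.

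Over all members the median width was 250 bp (quartiles 163 and 390), against 195.5 bp (155 and 333) in the flanks. The widest 10% of the list held 52 of 200 member peaks (26.0%) and 79 of 528 flank peaks (15.0%). Of these 52 wide peaks, GPAM held 12 and ACACA 30. Without those genes the medians were 184 bp in the genes and 202.5 bp in the flanks, and 14.9% of gene peaks and 12.8% of flank peaks were in the widest 10%.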

How the data were processed

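The submitters' processing notes name BWA and hg19. Per the file headers, the authors trimmed reads, removed duplicates and ran MACS on the LSD2 reads with input as control. They set read and fragment length to 120 bp, effective genome size to 2700 Mb, the p-value cutoff to 1e-05 and the enrichment factor to 32, with local biases detected. The sources used here give no versions. Each deposited line holds a start and an end position in bases, and depth is unknown. ChIP and input read sets carry different run dates in the header, so condition and run cannot be told apart.

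Starts were taken to count from 0 and are printed from 1. Spans came with the definition of the gene set, and strands from the RefSeq promoter table for 6 genes and from general knowledge for FASN and DGAT2. No hg19 annotation was used here, so other genes of the pathway were not placed. Members and measures were chosen with earlier results of these data known. All 8 genes are named. Searched sequence (2862 Mb) ran from the first to the last peak of a chromosome without peak-free stretches over 500 kb. Intervals are exact for densities (Poisson) and ratios (conditional binomial), and Wilson for shares. Python 3.11.15, pandas 2.3.3 and scipy 1.17.1 were used. The interval on the ratio was tested on simulated peaks placed independently and evenly, which does not cover peaks that cluster. The search for runs was tested on a planted run.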

Additional observations from a re-analysis of the deposited data

How the results depend on the processing

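Under 8 alternatives to the peaks or flanks used, the ratio of gene to flanks was 2.95 to 8.85 for GPAM, 1.40 to 3.14 for SCD and 1.16 to 1.94 for ACACA. FASN stayed at 0, and the other 4 genes fell on both sides of 1. Counting any overlap with the gene changed no ratio. Leaving out each gene in turn gave a summed ratio of 1.35 to 1.68. The ratio was 1.90 among peaks at least as wide as the median and 2.68 in the widest 10%, where the ratio of coverage was 2.80, against 1.84 among all peaks, and the cause was not tested. Starts with a peak within 1 kb numbered 0 in both stricter sets, and 0 at 500 bp and 5 at 2 kb. With gaps up to 1 kb there was no run in the genes (0, against 1). Without its run, an alternative chosen after seeing the data, GPAM had a ratio of 1.71 (0.46 to 4.57) in the rest of the gene. On the gene's own chromosome 42.5% of windows matched or passed ACLY, 5.49% SCD, 25.1% ELOVL6 and 34.1% DGAT2. No paired analysis was possible because each condition had 1 library. Unknown depth limits every count, since a region without a peak may have had too few reads.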
